A study of Sus scrofa with 12 samples.

Results

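Collagen chains, the subunits of the most abundant proteins of connective tissue, were compared between testis and epididymis of boars. Rows were taken by name, as every gene row called COL, a number, A and a number, which gave 39 of the 30640 rows. The family itself was chosen with earlier results of these data known. Another 2 rows carry only an Ensembl identifier but belong to chains by the gene ID table, COL4A1 and COL24A1, and are described beside the 39. The boars were adult, untreated animals of a small Chinese pig, the Banna mini-pig inbred line (BMI). Tissue is the only difference between the groups that the labels give. Each tissue had 5 short-read RNA libraries of the organ's RNA, replicates 1 to 5, and the animal numbers in the file headers recur in both tissues, so that replicates with the same number come from 1 boar. The labels give an age of 12 months, the file headers 12, 12, 11, 17 and 11 months for replicates 1 to 5, and age was not used as a variable. The part of the epididymis taken is not given in the sources used here, and the pooled long-read samples were not analysed here.

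Collagen chains wind around each other in a long helix and are assembled inside the cell, where enzymes hydroxylate and glycosylate them, before they are secreted and cross-linked. Fibrillar collagens form the ropes of the connective tissue, type IV collagen forms the sheet of basement membranes, and type VI collagen forms beaded microfibrils between the ropes. Fibril-associated chains sit on the surface of the ropes, multiplexins lie at the basement membrane, and transmembrane collagens are anchored in the cell membrane. In the testis collagens are known from the capsule, the wall of the seminiferous tubules and the vessels, and in the epididymis from the duct's basement membrane, its muscle coat and the stroma between the coils.

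Library totals were 18715154 to 30211957 reads in testis and 17980578 to 21937263 in epididymis, and values are counts per 1000000 reads (CPM), listed in the order of replicates 1 to 5. A count of 0 allows 3 reads, which is 0.0993 to 0.167 CPM in 1 library. Markers of the labelled organs matched the labels in direction. All 5 Leydig cell, 8 Sertoli cell and 6 spermatid genes found were higher in testis (100%, background 36.6% of all genes tested). All 6 duct epithelium genes found were higher in epididymis (100%, background 37.8%). Libraries of the tissues overlapped for the Sertoli genes SOX9 and AMH, and AMH averaged 82.2 CPM in testis against 50.5 in epididymis. Testis replicate 4 held another mix of RNA than the other testis libraries, with the signal recognition particle RNA at 7.75 CPM against 7888 to 9134. Epididymis libraries held 1.00 to 8.27 CPM of it, so in this RNA testis replicate 4 was like the epididymis. The other testis libraries differed in it from every epididymis library, and that difference cannot be told apart from tissue. Epididymis replicate 3 differed from the other libraries of its tissue by a chi-square of 340.0 to 436.9 per degree of freedom, against 72.5 to 228.2 among the other 4. Values without these libraries are given where they change a result. In whole tissue, fewer cells of a type and less RNA per cell cannot be told apart.

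The abundant interstitial chains were higher in epididymis, while a smaller set, scarce except for COL12A1, COL22A1 and COL24A1, was higher in testis. Of the 39 chains, 36 had enough reads for edgeR's quasi-likelihood test over 17225 genes, with p-values adjusted by Benjamini-Hochberg and called below 0.05, and COL11A2, COL6A6 and COL10A1 did not. Higher in epididymis were 18 of the 36 (50%), against a background of 37.8% of all genes tested, and higher in testis were 8 (22.2%), against 36.6%, so that 72.2% were called in either direction, near the background of 74.4%. Changes beyond 2-fold were called for 15 chains in epididymis (41.7%, background 23.4%) and for 6 in testis (16.7%, background 27.3%). In 16 chains all 5 testis libraries lay below all 5 epididymis libraries (44.4%, background 29.3%), and in 6 they lay above (16.7%, background 32.1%), together 61.1% without overlap against 61.4% of all genes. The median log2 fold change of the tested chains, testis over epididymis, was -0.96, and that of all tested genes -0.07; values given after a log2 fold change with ± are its standard error. With the 2 chains named by identifier the numbers were 19 and 9 of 38.

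**Figure D1:**
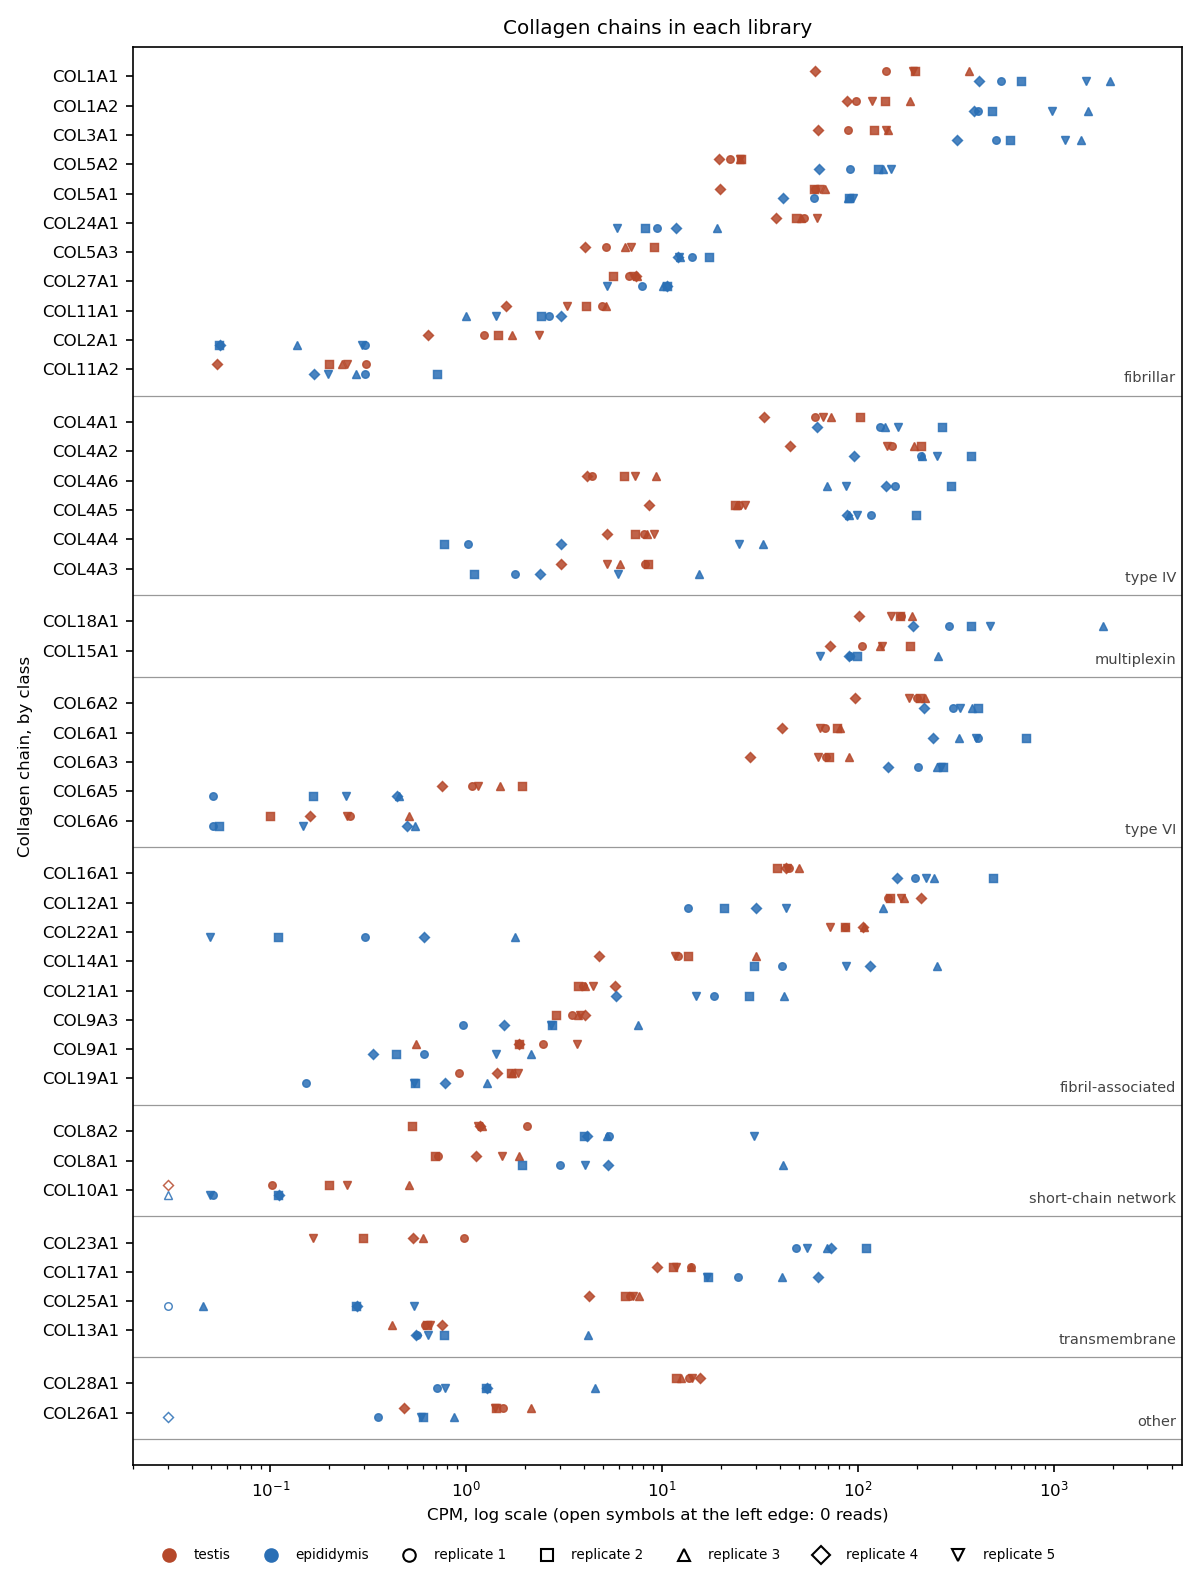
Counts per 1000000 reads (horizontal log axis) of the 41 chains in each of the 10 libraries, grouped by class; red symbols are testis, blue symbols epididymis, symbol shapes are replicates, and open symbols at the left edge stand for 0 reads. COL23A1 and COL4A6 lie apart on the epididymis side, COL22A1 and COL25A1 on the testis side, and testis replicate 4 is the lowest testis library in 25 of the 38 tested chains.

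Type I and type III collagen, the main chains of fibrils, were the most abundant chains of the epididymis per length and were higher there than in testis. COL1A1, the major chain of type I collagen (chromosome 12, 26379087 to 26397180), had 139, 196, 369, 60.5 and 190.0 CPM in testis and 534, 679.9, 1933, 414 and 1462 in epididymis. Epididymis replicates 3 and 5 were the highest and testis replicate 4 the lowest, and the tissues did not overlap. The difference was 5.14-fold, with a log2 fold change of -2.36 ± 0.54 and an edgeR adjusted p of 0.00178. COL1A2, its partner in the type I helix (chromosome 9, 74174484 to 74210407), had 97.5, 138, 184, 87.4 and 117 CPM against 408, 480.3, 1489, 389.5 and 971, again without overlap and with the same 2 epididymis libraries on top (log2 -2.55 ± 0.41, edgeR adjusted p = 0.000142). COL3A1, the chain of type III collagen in the fine fibres of soft organs (chromosome 15, 93556914 to 93595678), had 88.8, 121, 143, 62.8 and 139 CPM against 503, 594, 1367, 320.0 and 1132. It differed 6.96-fold (log2 -2.80 ± 0.42, edgeR adjusted p = 7.71e-05), and its lowest epididymis library, replicate 4, lay above its highest testis library.

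Chains of type V collagen, which starts fibrils and limits their thickness, did not move together. COL5A2 (chromosome 15, 93611856 to 93981131) was higher in epididymis, with 22.2, 25.3, 24.9, 19.4 and 25.1 CPM in testis and 90.6, 126, 135, 63.2 and 148 in epididymis (log2 -2.25 ± 0.25, edgeR adjusted p = 7.81e-06). The scarcer COL5A3 was higher there too, with 6.32 ± 1.88 CPM against 13.6 ± 2.21 (SD, n = 5 each), a log2 fold change of -1.08 ± 0.26 and an edgeR adjusted p of 0.00261. COL5A1, the chain that pairs with COL5A2, had 60.6, 59.8, 67.6, 19.8 and 63.6 CPM in testis and 59.9, 90.2, 88.9, 41.3 and 94.4 in epididymis. These libraries overlapped and the difference was not called (log2 -0.45 ± 0.35, edgeR adjusted p = 0.256). Testis replicate 4 was the lowest testis library for both, far below the others in COL5A1 and close to them in COL5A2.

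Among the other fibrillar chains, COL24A1 and COL2A1 were higher in testis. COL24A1, a minor fibrillar chain known from developing bone (row ENSSSCG00000031738.2, chromosome 4, 129911760 to 130243177), had 52.7, 48.3, 51.2, 37.99 and 61.3 CPM in testis and 9.37, 8.16, 19.1, 11.8 and 5.88 in epididymis. All testis libraries, replicate 4 included, lay above all epididymis libraries, and the difference was 4.75-fold (log2 2.25 ± 0.29, edgeR adjusted p = 2.17e-05). COL2A1, the main collagen of cartilage (chromosome 5, 78350131 to 78380893), was scarce, with 1.23, 1.46, 1.71, 0.641 and 2.34 CPM against 0.305, 0.0548, 0.137, 0.0556 and 0.294 (log2 3.08 ± 0.54, edgeR adjusted p = 0.000243). Its tissues did not overlap, although the epididymis values rest on 1 to 6 reads per library. COL11A1, a cartilage chain that builds thin fibrils, had 4.92, 4.07, 5.18, 1.603 and 3.28 CPM against 2.65, 2.41, 1.003, 3.06 and 1.42 and was not called (log2 0.89 ± 0.40, edgeR adjusted p = 0.0639). That call depended on 1 library and on the scaling, with an edgeR adjusted p of 0.0167 without testis replicate 4 (log2 1.09) and 0.0407 with DESeq2 size factors (log2 1.01). COL27A1, another cartilage chain, had 6.76, 5.59, 7.45, 7.32 and 7.103 against 7.89, 10.6, 10.1, 10.6 and 5.24 CPM, with overlap and no call (log2 -0.35 ± 0.23, edgeR adjusted p = 0.184), but without epididymis replicate 5, its lowest library of that tissue, the log2 fold change was -0.50 and the edgeR adjusted p 0.0427. COL11A2, with 0.207 ± 0.0947 against 0.331 ± 0.220 CPM (SD, n = 5 each), was too scarce to be tested.

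**Figure D2:**
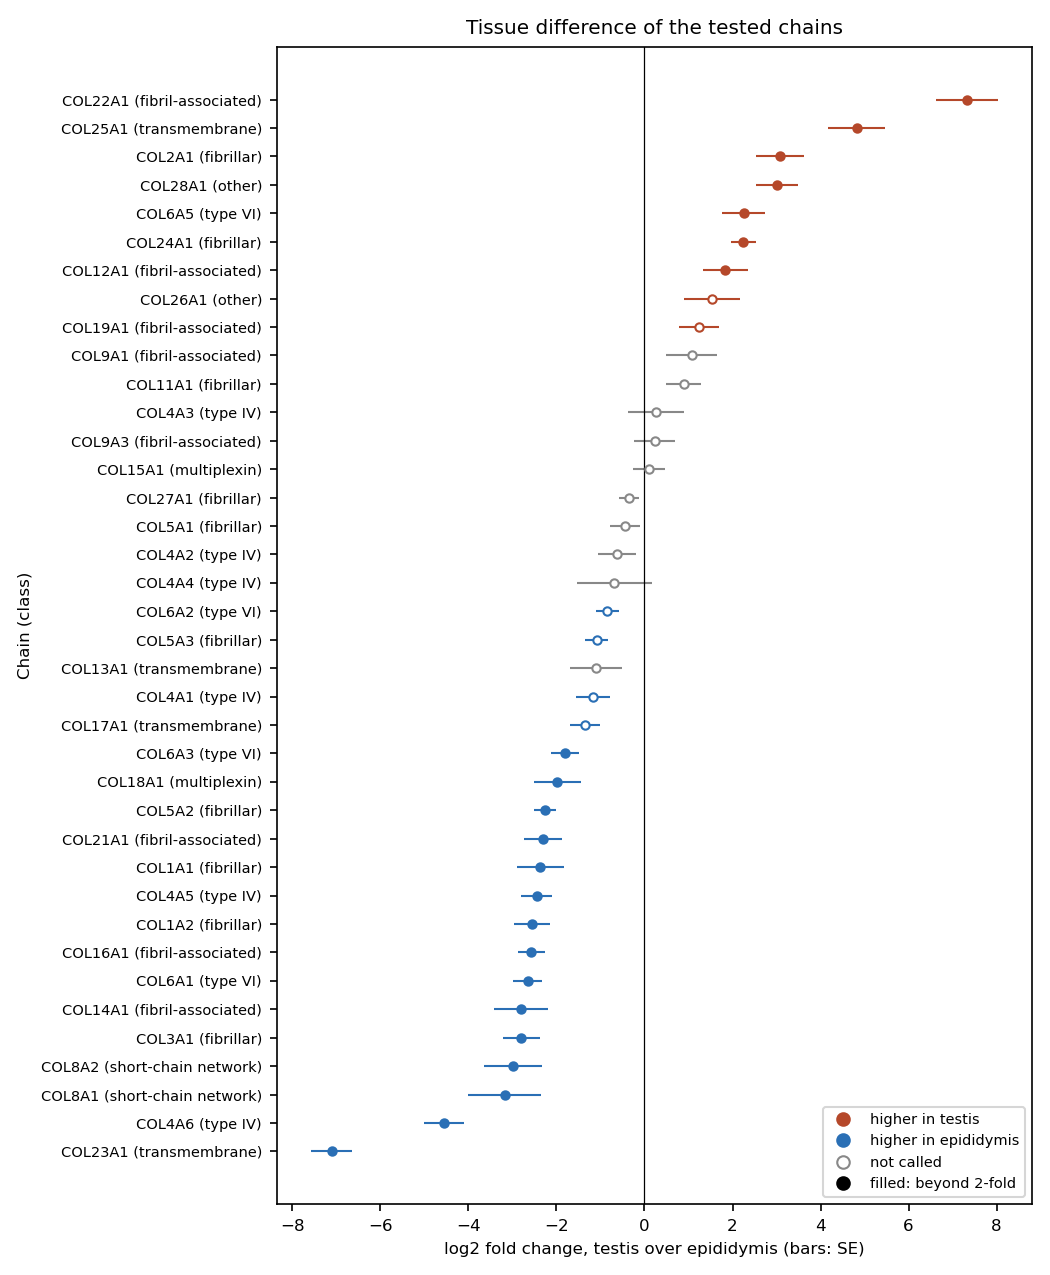
Log2 fold change of testis over epididymis (horizontal axis) with its standard error for the 38 tested chains, ordered by value; red is higher in testis, blue higher in epididymis, grey not called, and filled symbols are changes called beyond 2-fold. The values run from -7.11 for COL23A1 to 7.33 for COL22A1. The fibrillar, type IV, multiplexin, type VI, fibril-associated and transmembrane classes hold chains on both sides of 0. In type IV and the multiplexins the only chains above 0, COL4A3 and COL15A1, were not called.

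Type IV collagen comes in pairs of genes that lie head to head, and the pairs differed from each other. COL4A1 and COL4A2, whose chains form the common basement membrane network, lie beside each other on chromosome 11 (76858332 to 76997409 and 76996885 to 77161617), with spans that overlap by 525 bases. COL4A1 (row ENSSSCG00000044700.1) had 60.3, 102, 72.4, 32.97 and 65.98 CPM in testis and 129, 267, 138, 61.6 and 160.4 in epididymis. It was higher in epididymis (log2 -1.17 ± 0.39, edgeR adjusted p = 0.0178), although epididymis replicate 4 lay among the testis libraries. COL4A2 had 149, 209, 193, 45.04 and 139.7 CPM against 209, 375, 211, 95.3 and 253 and was not called (log2 -0.62 ± 0.43, edgeR adjusted p = 0.208). With the boar as a block it was called (log2 -0.66, edgeR adjusted p = 0.0203), and likewise without epididymis replicates 3 and 4 (log2 -0.96, edgeR adjusted p = 0.0486). For both chains the lowest library of each tissue was replicate 4.

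COL4A5 and COL4A6, partners in the basement membranes of smooth muscle and some epithelia, were both clearly higher in epididymis. COL4A6 (X chromosome, 88634925 to 88750938) had 4.41, 6.39, 9.35, 4.11 and 7.23 CPM in testis and 155, 299, 69.7, 139 and 86.5 in epididymis, a 23.6-fold difference (log2 -4.56 ± 0.46, edgeR adjusted p = 3.08e-06). No testis library came near the lowest epididymis library, replicate 3. COL4A5 (X chromosome, 88958837 to 89183306) had 24.7, 23.4, 24.1, 8.603 and 26.4 CPM against 116, 198, 89.5, 87.9 and 98.3, also without overlap (log2 -2.44 ± 0.35, edgeR adjusted p = 5.84e-05). Epididymis replicate 2 was the highest for both, and testis replicate 4 the lowest. Smooth muscle markers were also higher in epididymis, in 7 of 7 cases (100%, background 37.8%). Their summed level was 286 to 446 CPM in testis and 5751 to 16556 in epididymis, with none at 0. Epididymis replicate 2 was highest in the sum and in both chains, but other libraries did not keep that order. Epididymis replicate 4 had the lowest sum of its tissue, with COL4A6 at 139 CPM. In replicate 5 the sum was 11906 and COL4A6 86.5 CPM. Testis replicate 4, lowest in both chains, had a sum of 388 CPM, above the 286 of testis replicate 5. The part of these markers in the result was not tested.

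COL4A3 and COL4A4, the pair best known from the filter of the kidney, gave no call. COL4A4 (chromosome 15, 128472228 to 128612302) had 8.04, 7.28, 8.33, 5.24 and 9.03 CPM in testis, a narrow range, and 1.02, 0.767, 32.6, 3.06 and 24.7 in epididymis, where replicates 3 and 5 were high and the others low. Its log2 fold change of -0.68 ± 0.86 (edgeR adjusted p = 0.485) was 0.01 without epididymis replicate 3 (edgeR adjusted p = 0.994) and 0.64 with the boar as a block (edgeR adjusted p = 0.537). COL4A3 (chromosome 15, 128611640 to 128763331) followed with 8.197, 8.47, 6.11, 3.05 and 5.21 CPM against 1.78, 1.095, 15.5, 2.39 and 5.92 (log2 0.27 ± 0.63, edgeR adjusted p = 0.714). Without epididymis replicate 3 it was called higher in testis (log2 1.14, edgeR adjusted p = 0.0484). In both chains epididymis replicates 1, 2 and 4 lay below every testis library. The spans of the pair overlap by 663 bases, and COL4A4 also overlaps RHBDD1.

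Multiplexins of the basement membrane zone release fragments that restrain vessel growth, and only COL18A1 was called. COL18A1, the source of endostatin (chromosome 13, 207907835 to 207984082), had 165, 164, 188, 102 and 147 CPM in testis and 291, 379, 1776, 191 and 469 in epididymis. Epididymis replicate 3 stood far above the others, and the tissues did not overlap. The log2 fold change was -1.98 ± 0.53 (edgeR adjusted p = 0.00522), and without that library it was smaller, -1.14 (edgeR adjusted p = 0.00282). COL15A1 (chromosome 1, 240718128 to 240829188) had 105, 184, 129, 72.1 and 133 CPM against 90.7, 98.2, 256, 89.9 and 63.9, with overlap and no call (log2 0.10 ± 0.37, edgeR adjusted p = 0.809). Its direction was not stable: the log2 fold change was -0.08 without testis replicate 2, -0.02 without epididymis replicate 4 and -0.07 without epididymis replicate 5 (edgeR adjusted p = 0.862, 0.959 and 0.874), and with testis replicate 4 and epididymis replicate 3 both left out, an alternative chosen after seeing the data, it was called higher in testis (log2 0.70, edgeR adjusted p = 0.0115).

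Type VI chains COL6A1, COL6A2 and COL6A3, which join into 1 microfibril, were all higher in epididymis but by unequal amounts. COL6A1 had 67.6, 78.2, 80.9, 40.8 and 64.01 CPM in testis and 408, 720.2, 327, 242 and 399.9 in epididymis, a 6.28-fold difference (log2 -2.65 ± 0.33, edgeR adjusted p = 1.83e-05). COL6A3, the longest of the chains (chromosome 15, 137011549 to 137103687), had 68.3, 71.4, 89.7, 28.2 and 62.8 CPM against 202, 272, 254, 143 and 264 (log2 -1.80 ± 0.31, edgeR adjusted p = 0.00024). In both, testis and epididymis libraries did not overlap and testis replicate 4 was the lowest. COL6A2, which like COL6A1 has no chromosome position in the table used here, had 200.4, 207, 218, 96.8 and 182 CPM against 305, 409.9, 379.9, 218 and 329.5, a difference of 1.79-fold (log2 -0.84 ± 0.26, edgeR adjusted p = 0.0122). Here epididymis replicate 4 was level with testis replicate 3, so the tissues touched. COL6A5, which can take the place of COL6A3 (chromosome 13, 2029543 to 2174404), was the exception, higher in testis at a low level of 1.08, 1.92, 1.48, 0.748 and 1.15 against 0.0509, 0.164, 0.456, 0.445 and 0.245 CPM (log2 2.26 ± 0.49, edgeR adjusted p = 0.00114). COL6A6, of the same kind, had 0.254 ± 0.156 against 0.260 ± 0.244 CPM (SD, n = 5 each) and was not tested.

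Fibril-associated chains held the largest difference in favour of the testis. COL22A1, known from the junctions between muscle and tendon (chromosome 4, 4069045 to 4313198), had 85.8, 86.1, 107, 105 and 71.9 CPM in testis and 0.305, 0.110, 1.78, 0.612 and 0.0490 in epididymis. It was 161-fold higher in testis (log2 7.33 ± 0.70, edgeR adjusted p = 2.07e-06), or by a log2 of 8.41 without epididymis replicate 3, the highest of its tissue (edgeR adjusted p = 1.95e-08). That library also held the most spermatid RNA of its tissue, with a sum of 431 CPM against 20.3 to 68.3 in the other epididymis libraries. In testis the sum was 10830 to 14061, and 6 of 6 spermatid markers were higher there (100%, background 36.6%). The part of this RNA in the result was not tested. COL12A1, which bridges type I fibrils to their surroundings (chromosome 1, 90744409 to 90875127), had 143, 146, 171, 210.3 and 165 CPM in testis and 13.5, 20.6, 134, 30.1 and 43.1 in epididymis (log2 1.83 ± 0.51, edgeR adjusted p = 0.00652). Only epididymis replicate 3 came close to the testis libraries, and without it the log2 fold change was 2.63 (edgeR adjusted p = 9.57e-06). Testis replicate 4, low in most chains, was the highest testis library of COL12A1. No other annotated gene overlaps the spans of COL12A1, COL22A1 or COL24A1 in the RefSeq table.

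COL16A1, COL14A1 and COL21A1 went the other way. COL16A1, which links fibrils and cells (chromosome 6, 88177798 to 88243718), had 44.4, 38.5, 49.7, 43.01 and 43.4 CPM in testis, a narrow range, and 194, 489.6, 244, 158 and 223 in epididymis (log2 -2.58 ± 0.31, edgeR adjusted p = 1.24e-05). COL14A1, a relative of COL12A1 that spaces fibrils (chromosome 4, 18690197 to 18925111), had 11.99, 13.5, 30.2, 4.76 and 11.6 CPM against 41.03, 29.4, 252, 115 and 86.7 (log2 -2.80 ± 0.61, edgeR adjusted p = 0.00136). Testis replicate 3 lay just above epididymis replicate 2, and without epididymis replicate 3 the log2 fold change was -2.21 (edgeR adjusted p = 0.0015). COL21A1, known from vessel walls (chromosome 7, 29414851 to 29609039), had 3.95, 3.74, 4.03, 5.72 and 4.43 CPM against 18.3, 27.9, 41.8, 5.84 and 14.9 (log2 -2.30 ± 0.43, edgeR adjusted p = 0.000451), with testis replicate 4 and epididymis replicate 4 nearly level. The relatives COL12A1 and COL14A1 thus took opposite sides.

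The remaining fibril-associated chains were scarce and their calls rested on single libraries. COL19A1, a chain of basement membrane zones (chromosome 1, 50044394 to 50402256), had 0.922, 1.69, 1.71, 1.44 and 1.85 CPM in testis against 0.153, 0.548, 1.28, 0.779 and 0.539 and was called higher in testis (log2 1.24 ± 0.44, edgeR adjusted p = 0.0235). That call ended without testis replicate 5 (edgeR adjusted p = 0.0501, log2 1.19) and without epididymis replicate 5 (edgeR adjusted p = 0.0519, log2 1.17). COL9A1, a cartilage chain that lies 1098 bases from COL19A1 on chromosome 1, had 2.46, 1.85, 0.555, 1.87 and 3.695 against 0.611, 0.438, 2.14, 0.334 and 1.42 CPM (log2 1.08 ± 0.58, edgeR adjusted p = 0.109). It was called higher in testis without testis replicate 3 (log2 1.38, edgeR adjusted p = 0.0426) or epididymis replicate 3 (log2 1.53, edgeR adjusted p = 0.0275). Its partner COL9A3, whose span overlaps that of TCFL5 by 323 bases, had 3.48, 2.88, 3.702, 4.06 and 3.82 against 0.967, 2.74, 7.57, 1.56 and 2.69 CPM (log2 0.23 ± 0.46, edgeR adjusted p = 0.659), and was called without epididymis replicate 3 (log2 0.83, edgeR adjusted p = 0.0449).

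Short-chain collagens of vessel walls and the cornea were scarce and higher in epididymis, each with 1 epididymis library far above the rest. COL8A1 (chromosome 13, 159216138 to 159374718) had 0.717, 0.695, 1.85, 1.12 and 1.52 CPM in testis and 3.004, 1.92, 41.3, 5.28 and 4.02 in epididymis, with replicate 3 on top. Its log2 fold change was -3.17 ± 0.83 (edgeR adjusted p = 0.00417), -1.58 without that library (edgeR adjusted p = 0.00289) and -2.29 with the boar as a block (edgeR adjusted p = 0.00272). COL8A2 (chromosome 6, 92246047 to 92272046), which joins COL8A1 in the same network, had 2.05, 0.530, 1.203, 1.18 and 1.15 CPM against 5.35, 3.997, 5.24, 4.12 and 29.5, with replicate 5 on top (log2 -2.9978 ± 0.66, edgeR adjusted p = 0.00135), or -1.94 without that library (edgeR adjusted p = 0.000616). The tissues did not overlap for either chain, but the high library was not the same. DESeq2 gave no adjusted p for either, so neither call has a counterpart there. COL10A1, known from the growth plate of bone, had 0.102, 0.199, 0.509, 0 and 0.246 against 0.0509, 0.110, 0, 0.111 and 0.0490 CPM, at or near the level of 3 reads, and was not tested. Its span lies within that of NT5DC1.

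Transmembrane collagens held the largest difference in favour of the epididymis. COL23A1 (chromosome 2, 79766260 to 80141296) had 0.973, 0.298, 0.602, 0.534 and 0.164 CPM in testis and 48.4, 109.9, 69.1, 72.5 and 55.04 in epididymis, a 138-fold difference (log2 -7.11 ± 0.47, edgeR adjusted p = 1.33e-07). COL17A1, part of the hemidesmosomes that fix basal epithelial cells to their basement membrane (chromosome 14, 114959404 to 115007734), had 13.99, 11.4, 13.98, 9.46 and 11.7 CPM against 24.3, 17.1, 40.7, 62.3 and 16.9 (log2 -1.36 ± 0.34, edgeR adjusted p = 0.00307). Tissues did not overlap for either, and for COL17A1 the highest library was epididymis replicate 4. Of 4 basal cell markers 3 were higher in epididymis (75%, background 37.8%). The summed level of the 4 was 20.0 to 27.0 CPM in testis and 341 to 1128 in epididymis, none was at 0, and their part in the result was not tested. COL25A1, a collagen known from neurons (chromosome 8, 112866597 to 113335765), was higher in testis, with 6.87, 6.49, 7.59, 4.22 and 7.06 CPM against 0, 0.274, 0.0456, 0.278 and 0.539 (log2 4.82 ± 0.65, edgeR adjusted p = 3.11e-05). Epididymis replicate 1 had 0 reads, and without epididymis replicate 5, the highest of its tissue, the log2 fold change was 5.44 (edgeR adjusted p = 2.5e-05). COL13A1, known from the junction of nerve and muscle, had 0.615, 0.629, 0.417, 0.748 and 0.657 against 0.560, 0.767, 4.19, 0.556 and 0.637 CPM and was not called (log2 -1.09 ± 0.59, edgeR adjusted p = 0.111); without epididymis replicate 3 the log2 fold change was -0.05 (edgeR adjusted p = 0.897).

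COL28A1 and COL26A1, which belong to none of these classes, were both higher in testis. COL28A1, a chain described around nerve fibres (chromosome 9, 77670890 to 77841939), had 13.7, 11.8, 12.5, 15.5 and 14.2 CPM in testis and 0.713, 1.26, 4.56, 1.28 and 0.783 in epididymis, without overlap (log2 3.01 ± 0.47, edgeR adjusted p = 0.00011), and its log2 fold change was 3.74 without epididymis replicate 3 (edgeR adjusted p = 1.40e-07). An uncharacterised long non-coding RNA gene overlaps its span by 128337 bases, and whether reads of both were told apart at counting is not given in the sources used here. Spans of COL2A1, COL4A2, COL5A2, COL8A1, COL11A1, COL14A1, COL19A1 and COL25A1 also overlap long non-coding RNA genes or pseudogenes, with the same limit. COL26A1, first described in testis and ovary (chromosome 3, 9003126 to 9164074), had 1.54, 1.42, 2.13, 0.481 and 1.396 CPM against 0.356, 0.602, 0.866, 0 and 0.588. Its call was narrow (log2 1.53 ± 0.64, edgeR adjusted p = 0.0459) and ended without any 1 of testis replicates 1, 2, 3 and 5 or epididymis replicates 1, 2 and 5 (edgeR adjusted p = 0.0592 to 0.0952, log2 1.38 to 1.62), and without the filter (edgeR adjusted p = 0.0574).

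Levels per length were compared within each tissue as reads per kilobase per 1000000 reads (RPKM). In epididymis the order was COL1A1 with 175 ± 115, COL1A2 with 144 ± 92.4, COL3A1 with 139 ± 79.2, COL6A2 with 111 ± 25.2 and COL6A1 with 97.01 ± 41.9 RPKM (SD, n = 5). Neighbours in that order lay within 1 SD of each other. In testis the highest was COL6A2 with 61.3 ± 16.5 RPKM, followed by COL1A1 with 33.2 ± 19.7, COL4A1 with 25.2 ± 9.37, COL1A2 with 24.1 ± 7.37 and COL4A2 with 22.7 ± 9.904, of which the last 4 lay within their spread. COL22A1 with 14.6 ± 2.39 and COL12A1 with 13.8 ± 2.24 RPKM stood at the level of COL6A1 (15.3 ± 3.68) and COL18A1 (14.8 ± 3.13) in testis. In epididymis COL22A1 was among the scarcest, at 0.0916 ± 0.114 RPKM, and COL12A1 at 3.98 ± 4.05. These levels depend on the length of each row, which is short for COL4A1 (2651 bases, against 6475 for COL4A2) and for COL6A2 (2952, against 4322 for COL6A1), so the order between such chains is uncertain while a difference of 1 chain between tissues is not affected.

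All 41 chains together took 1678, 1998, 2291, 1151 and 1804 CPM in testis and 3891, 5738, 9455, 2999 and 6467 CPM in epididymis. The highest testis library lay below the lowest epididymis library, replicate 4. Fibrillar chains made up 28.6, 30.4, 37.5, 26.2 and 34.1% of collagen reads in testis and 41.9, 35.03, 53.5, 42.2 and 59.3% in epididymis, and COL1A1, COL1A2 and COL3A1 alone 19.4, 22.8, 30.3, 18.3 and 24.7% and 37.1, 30.6, 50.7, 37.5 and 55.1%. The share of the fibrillar class overlapped between tissues, while that of these 3 chains did not. Fibril-associated chains had a larger share in testis, 17.6, 14.7, 16.1, 32.7 and 16.96% against 6.92, 9.96, 7.23, 10.4 and 5.76%, without overlap, and in testis replicate 4 they made up the largest share of any class. Type IV chains took 15.2, 17.8, 13.7, 8.603 and 14.1% and 15.7, 19.9, 5.88, 13 and 9.72%, and type VI chains 20.1, 17.9, 17.1, 14.5 and 17.2% and 23.5, 24.4, 10.2, 20.1 and 15.4%, with overlap in both. Shares are parts of 1 whole, so a higher fibrillar share lowers the others.

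**Figure D3:**
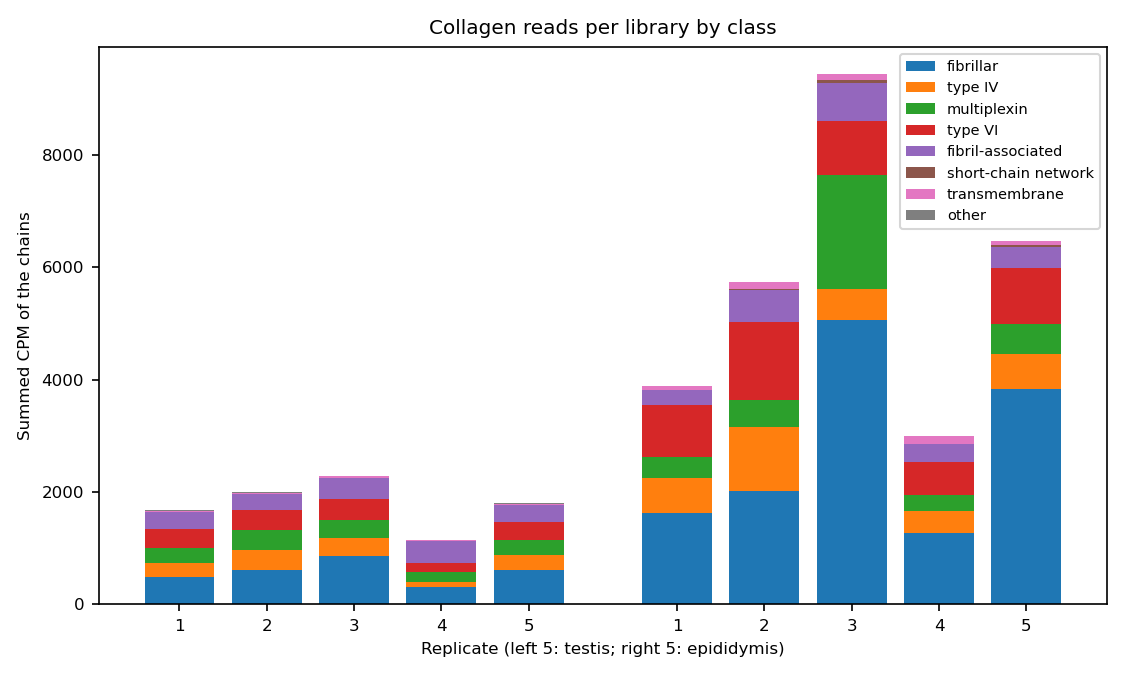
Summed counts per 1000000 reads of the 41 chains (vertical axis) in each library, stacked by class, with the 5 testis libraries at the left and the 5 epididymis libraries at the right. Testis libraries reach 1151 to 2291 and epididymis libraries 2999 to 9455, with the fibrillar part largest in epididymis replicates 3 and 5.

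Ratios of chains per kilobase within a library do not depend on how libraries are scaled, and 11 of them were compared between tissues with an exact two-sided permutation test, whose smallest p for 5 against 5 libraries is 0.00794, adjusted over the 11. COL6A1 per COL6A2 was 0.230, 0.259, 0.253, 0.288 and 0.240 in testis and 0.915, 1.2, 0.587, 0.757 and 0.829 in epididymis. The testis libraries lay close together and below every epididymis library, with a log2 difference of -1.72 (exact p = 0.00794, adjusted 0.0175), and testis replicate 4 stayed with its tissue. COL4A5 per COL4A6 was 4.14, 2.701, 1.902, 1.54 and 2.698 in testis and 0.554, 0.488, 0.948, 0.465 and 0.838 in epididymis, so that per kilobase COL4A5 led in every testis library and COL4A6 in every epididymis library (log2 difference 1.96, exact p = 0.00794, adjusted 0.0175). COL15A1 per COL18A1 (log2 difference 1.74) and COL4A5 per COL4A1 (-1.37) also differed without overlap, with the same exact p and adjusted value. COL6A3 per COL6A1 was 0.372, 0.336, 0.408, 0.254 and 0.361 in testis against 0.182, 0.139, 0.286, 0.217 and 0.242 (log2 difference 0.72, exact p = 0.0159, adjusted 0.0291), a call that ended without testis replicate 1, 2, 3 or 5 (exact test, adjusted p = 0.0582, log2 difference 0.66 to 0.73).

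Other ratios moved with testis replicate 4. COL5A1 per COL5A2 was 2.29, 1.98, 2.28, 0.853 and 2.12 in testis and 0.554, 0.598, 0.553, 0.548 and 0.535 in epididymis (log2 difference 1.69, exact p = 0.00794, adjusted 0.0175). The epididymis values were nearly constant, and testis replicate 4 lay between them and the other testis libraries. COL4A1 per COL4A2 was 0.986, 1.19, 0.914, 1.79 and 1.15 against 1.51, 1.74, 1.59, 1.58 and 1.55, with testis replicate 4 above every epididymis library and the other testis libraries below them (log2 difference -0.44, exact p = 0.0476, adjusted 0.0655). Without that library the exact test called the ratio (log2 difference -0.59, adjusted p = 0.0175), and the same held for COL3A1 per COL1A1 (log2 difference -0.49, adjusted p = 0.0218, against -0.32 and an adjusted p of 0.272 with all libraries). COL1A1 per COL1A2, the partners in type I collagen, did not differ detectably, with 1.28, 1.28, 1.81, 0.623 and 1.45 in testis and 1.18, 1.27, 1.17, 0.957 and 1.35 in epididymis (log2 difference 0.05, exact p = 0.841, adjusted 0.897). COL4A3 per COL4A4 showed no call either (exact p = 0.897, adjusted 0.897), and COL4A3 per COL4A1 missed it (log2 difference 1.92, exact p = 0.0397, adjusted 0.0624) but was called without epididymis replicate 3 (log2 difference 2.46, exact test, adjusted p = 0.0175). With signs flipped only within boars the smallest exact p is 0.0625, and the 6 called ratios had an adjusted p of 0.115, which is no call in a design that cannot give one.

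**Figure D4:**
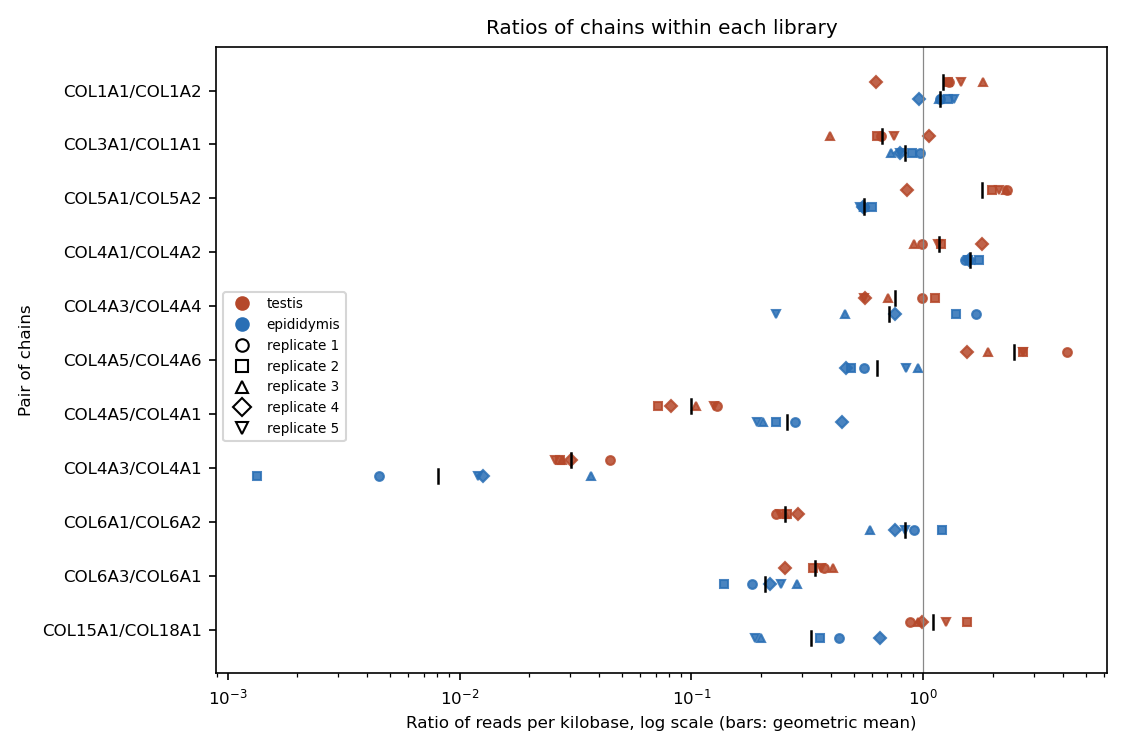
Ratio of reads per kilobase of 2 chains (horizontal log axis) in each library for 11 pairs; red is testis, blue epididymis, symbol shapes are replicates and black bars geometric means. COL6A1/COL6A2 and COL4A5/COL4A6 separate the tissues with testis replicate 4 (diamond) on the testis side, whereas that library lies nearest to the epididymis for COL5A1/COL5A2 and above it for COL4A1/COL4A2.

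Some libraries were the highest or lowest of their tissue in many chains, but not in all. Epididymis replicate 3 was the highest of its tissue in 20 of the 38 tested chains and replicate 4 the lowest in 18, while testis replicate 3 was the highest in 17 and replicate 4 the lowest in 25. Epididymis replicate 2 was the highest in 11, and epididymis replicate 3 was the lowest in 2, COL4A6 among them. Among fibroblast markers 5 of 7 were higher in epididymis (71.4%, background 37.8%) and 1, LOXL1, in testis (14.3%, background 36.6%). Their summed level was 89.6 to 119.7 CPM in testis and 192, 312, 474, 259 and 197 CPM in epididymis, with none at 0. The sum was highest in epididymis replicate 3, as were COL1A1, COL14A1 and COL18A1, but the other libraries did not keep that order. COL1A1 was next highest in replicate 5, at 1462 CPM, where the sum was 197. COL14A1 was lowest in replicate 2, at 29.4 CPM, where the sum was 312. Endothelial markers were higher in epididymis in 3 of 7 cases (42.9%, near the background of 37.8%) and in testis in 0 (background 36.6%). Their sums were 238 to 455 CPM in testis and 228 to 598 in epididymis, with none at 0. Pericyte markers were higher in epididymis in 4 of 4 cases (100%, background 37.8%), with sums of 65.2 to 108 CPM in testis and 181 to 293 in epididymis. Of 2 tested adipocyte markers 0 were called (background 74.4%). The adipocyte sum was 53.9 CPM in epididymis replicate 3, 0.441 to 14.6 in the other epididymis libraries and 10.9 to 15.2 in testis. The part of these cells in the collagen differences was not tested. When testis was represented by replicate 4 alone, the spread could only be taken from the epididymis libraries, so calls are not counted for that fit. In it the log2 fold changes of COL11A1, COL4A3 and COL15A1 changed sign. Without testis replicate 4 the calls were 9 chains higher in testis and 18 in epididymis. They were 11 and 18 without epididymis replicate 3, and 12 and 18 without both. Over all genes the same counts were 6818 and 6883 of 18013, 6980 and 6603 of 17808, and 7131 and 6836 of 17703.

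Enzymes that modify the chains inside the cell were higher in epididymis or not called. Of 15 genes of hydroxylation and glycosylation 7 were higher in epididymis (46.7%, background 37.8%) and 0 in testis (background 36.6%). The other 8 were not called, so that 46.7% were called in either direction, below the background of 74.4%. Their list had a median log2 fold change of -0.85. P4HB, the shared subunit of prolyl hydroxylase and a disulfide isomerase, had 333, 329.8, 362, 272 and 341 CPM in testis and 1731, 1387, 1323, 1338 and 1684 in epididymis (log2 -2.17 ± 0.19, edgeR adjusted p = 1.04e-06). PPIB, the isomerase that lets chains fold, had 81.2, 76.8, 68.9, 69.4 and 78.5 against 465, 501, 245, 368 and 425 CPM (log2 -2.41 ± 0.22, edgeR adjusted p = 1.71e-06). Tissues were far apart for both. P3H2, the prolyl hydroxylase known for type IV collagen, had 8.3, 15.9, 9.02, 4.43 and 8.46 against 68.6, 47.03, 364, 117 and 112 CPM (log2 -3.88 ± 0.57, edgeR adjusted p = 6.27e-05), or a log2 of -3.20 without epididymis replicate 3 (edgeR adjusted p = 9.2e-06). The lysyl hydroxylases PLOD1, PLOD2 and PLOD3 were not called, with log2 fold changes of 0.40, 0.10 and 0.41. SERPINH1, the chaperone of collagen, was not called either, with 140.2, 158, 127, 102 and 230.1 against 109, 163, 202, 81.4 and 89.6 CPM (log2 0.25 ± 0.30, edgeR adjusted p = 0.459). Of the 6 chaperone and export genes 2 were higher in each tissue (33.3% each, background 36.6% for testis and 37.8% for epididymis). MIA3, which loads collagen for export, had 210.0, 179.8, 179, 203 and 207 CPM in testis and 94.6, 78.95, 113, 169 and 148 in the other tissue (log2 0.73 ± 0.20, edgeR adjusted p = 0.00561). PDIA3, a disulfide isomerase, had 239, 190.5, 181, 327 and 245 against 683, 774, 874, 907 and 1002 CPM (log2 -1.83 ± 0.20, edgeR adjusted p = 5.93e-06). Tissues did not overlap for either.

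BMP1, the protease that removes the C-terminal propeptide, had 146, 189, 174, 106 and 179 CPM in testis and 17.1, 23.9, 27.4, 14.2 and 15.2 in epididymis, higher in testis without overlap (log2 3.05 ± 0.26, edgeR adjusted p = 8.61e-07), whereas its enhancer PCOLCE was higher in epididymis, with 22.9, 23.6, 30.1, 26.2 and 26.8 against 89.2, 126, 94.6, 77.5 and 85.6 CPM (log2 -1.85 ± 0.19, edgeR adjusted p = 3.41e-06). Of the 6 tested genes of propeptide removal 2 were higher in testis (33.3%, background 36.6%), 1 in epididymis (16.7%, background 37.8%) and 3 were not called. ADAMTS2, which cuts the N-terminal propeptide, had 43.1, 45.6, 33.1, 17.2 and 36.9 against 9.27, 6.899, 42.7, 10.8 and 30.8 CPM and was not called (log2 0.84 ± 0.49, edgeR adjusted p = 0.139), but was higher in testis without epididymis replicate 3 (log2 1.27, edgeR adjusted p = 0.0209). The 7 cross-linking genes held 2 calls for each tissue (28.6% each, background 36.6% for testis and 37.8% for epididymis), and 3 were not called. LOX, the main lysyl oxidase, had 9.68, 10.7, 8.47, 11.01 and 8.91 against 5.396, 6.46, 62.2, 9.07 and 29.7 CPM (log2 -1.17 ± 0.60, edgeR adjusted p = 0.0938), with epididymis replicates 3 and 5 high. It was called higher in epididymis without epididymis replicate 1 (log2 -1.41, edgeR adjusted p = 0.0394) or 2 (log2 -1.39, edgeR adjusted p = 0.0472), and its log2 fold change was -0.40 without replicate 3 (edgeR adjusted p = 0.431). LOXL1, its relative, was higher in testis with 27.1, 22.4, 23.2, 22.98 and 21.8 against 7.84, 12.3, 17.4, 8.12 and 11.3 CPM (log2 1.07 ± 0.24, edgeR adjusted p = 0.00145). GOT1 of the same list is an aspartate aminotransferase known for amino acid metabolism rather than cross-linking. It was higher in testis too, with 179.7, 179, 167, 162 and 174 against 27.5, 33.9, 30.1, 32.1 and 32.7 CPM (log2 2.48 ± 0.15, edgeR adjusted p = 6.22e-08).

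Fibril-binding proteins were mostly higher in epididymis, with 8 of 11 tested higher in epididymis (72.7%, background 37.8%), 0 in testis (background 36.6%) and a median log2 fold change of -1.33. DCN, decorin, had 54.6, 60.2, 86.6, 89.9 and 64.96 CPM in testis and 172, 234, 362, 310.4 and 446 in epididymis (log2 -2.08 ± 0.27, edgeR adjusted p = 2.26e-05). BGN, biglycan, had 23.8, 37.9, 41.9, 17.4 and 24.8 against 90.6, 115, 145, 82.9 and 40.1 CPM (log2 -1.66 ± 0.35, edgeR adjusted p = 0.000989), with epididymis replicate 5 below testis replicate 3. SPARC, which binds collagen during assembly, was abundant in both tissues, with 513, 513, 615, 320.1 and 595 against 523, 617, 915, 318 and 812 CPM, and was not called (log2 -0.30 ± 0.30, edgeR adjusted p = 0.376).

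Of 10 receptor and uptake genes 6 were higher in epididymis (60%, background 37.8%) and 2 in testis (20%, background 36.6%). DDR1, a collagen receptor kinase, had 79.2, 83.2, 81.5, 62.3 and 78.8 CPM in testis and 233, 154, 254, 236 and 182 in epididymis, without overlap (log2 -1.43 ± 0.17, edgeR adjusted p = 1.52e-05). MRC2, which takes up collagen for breakdown, had 35.1, 32.4, 40.9, 22.8 and 32.97 against 72.7, 115, 106, 109 and 70.4 CPM, also without overlap (log2 -1.50 ± 0.21, edgeR adjusted p = 5.26e-05). ITGA10, a chain of a collagen-binding integrin, was higher in testis in all libraries, with 31.8, 29.99, 30.9, 25.2 and 32.8 against 21.99, 15.9, 19.7, 20.5 and 19.1 CPM (log2 0.65 ± 0.16, edgeR adjusted p = 0.00313). GP6, a collagen receptor of platelets, was also higher in testis, at 1.54, 0.993, 1.16, 0.427 and 0.739 against 0, 0.110, 0.319, 0.667 and 0 CPM, with overlap (log2 2.20 ± 0.78, edgeR adjusted p = 0.0220). It lost its call without testis replicate 1 (log2 2.03, edgeR adjusted p = 0.0517) or epididymis replicate 2 (log2 2.04, edgeR adjusted p = 0.0509), and its log2 fold change was 3.07 without epididymis replicate 4 (edgeR adjusted p = 0.00508). PEPD, which recycles proline, had 48.5, 62.03, 52.2, 77.3 and 55.02 against 55.6, 39.6, 55.4, 59.1 and 46.03 CPM and was not called (log2 0.23 ± 0.17, edgeR adjusted p = 0.245).

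Of 10 partners of type IV collagen in the basement membrane 4 were higher in epididymis (40%, background 37.8%), 3 in testis (30%, background 36.6%) and 3 were not called, shares near those of all genes. LAMB2 had 88.1, 108, 109, 78.1 and 91.2 CPM in testis and 267, 421, 354, 306 and 332 in epididymis (log2 -1.80 ± 0.19, edgeR adjusted p = 4.81e-06), whereas its relative LAMB1 had 94.1, 84.7, 92.7, 153 and 105 against 35.9, 42.2, 56.8, 49.4 and 43.1 (log2 1.24 ± 0.19, edgeR adjusted p = 7.94e-05). These laminin beta chains separated the tissues in opposite directions. LAMA1, a laminin alpha chain, was higher in testis with 59.2, 41.6, 47.2, 23.4 and 57.2 against 26.1, 28.2, 4.604, 7.67 and 10.48 CPM (log2 1.56 ± 0.49, edgeR adjusted p = 0.0128), and so was NID2, a nidogen that links laminin to type IV collagen, with 153, 139, 98.9, 67.2 and 152 against 59.97, 75.2, 72.1, 34.7 and 67.3 CPM (log2 0.99 ± 0.29, edgeR adjusted p = 0.00771). For both, testis replicate 4 was the lowest testis library and fell among the epididymis libraries. HSPG2, perlecan, was not called, with 429, 593, 529, 157 and 461 against 377, 429, 626, 376 and 559.9 CPM (log2 -0.10 ± 0.33, edgeR adjusted p = 0.798), and its direction changed with DESeq2 size factors (log2 0.02, edgeR adjusted p = 0.949) and without testis replicate 4 (log2 0.12, edgeR adjusted p = 0.616). Over all 7 lists 30 of 65 tested genes were higher in epididymis (46.2%, background 37.8%) and 11 in testis (16.9%, background 36.6%). GOT1 is counted among the 11.

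**Figure D5:**
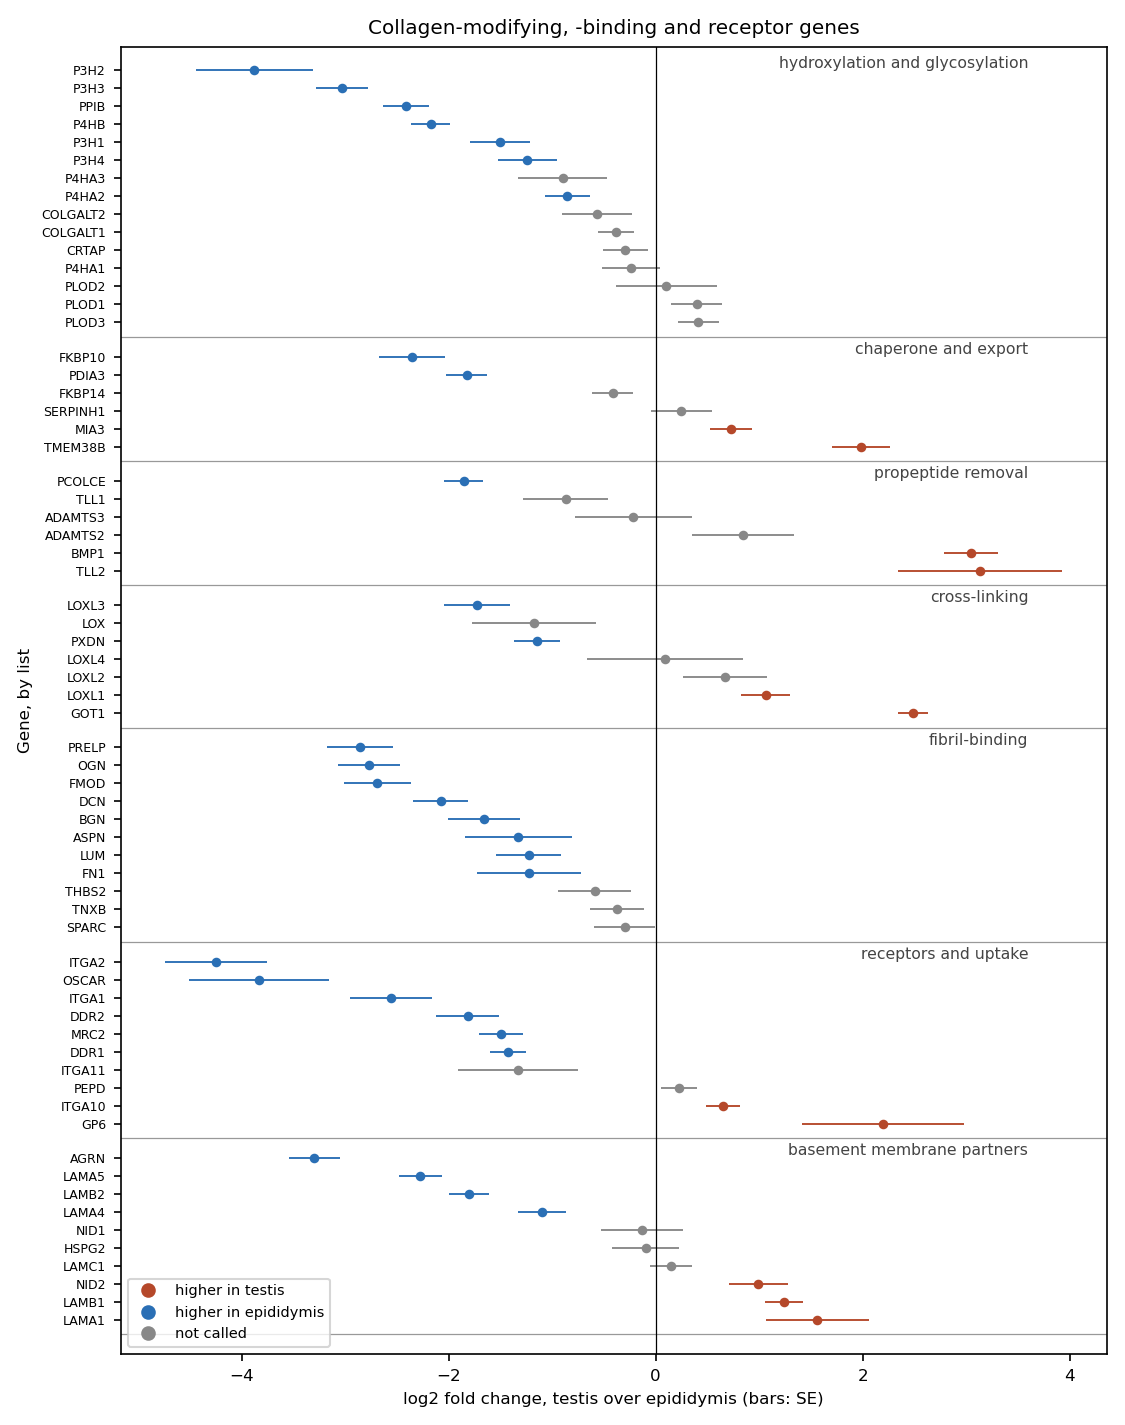
Log2 fold change of testis over epididymis (horizontal axis) with its standard error for the 65 tested genes of 7 lists. The lists hold genes that modify, bind or receive collagen, and also GOT1, an aspartate aminotransferase placed under cross-linking. Red is higher in testis, blue higher in epididymis and grey not called. Hydroxylation and fibril-binding genes hold no gene called higher in testis, whereas the other 5 lists hold calls on both sides.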

How the data were processed

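Gene counts of 5 testis and 5 epididymis libraries from the same 5 boars were used. The authors deposited raw read counts per gene, and the gene length in bases beside them. Per the submitters' processing notes the tools were cutadapt 3.0, STAR and featureCounts with build Sscrofa11.1, and per the file headers each boar has 1 library of each tissue. For strandedness and multi-mapped reads no setting is given by these sources. The collagen chains and the lists of other genes were chosen with earlier results of these data known.

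Counts were fitted over all genes with edgeR 4.0.16 in R 4.3.3 (filterByExpr, TMM, robust quasi-likelihood test, tissue as the only term), with Benjamini-Hochberg adjustment over 17225 genes and glmTreat for changes beyond 2-fold. Standard errors were taken from the fold change and the F statistic and are approximate. CPM were computed over the library total and RPKM from the deposited length. Ratios of chains were tested by exact permutation of libraries. The fit was tested on simulated data before use. DESeq2 1.42.0, other scalings, no filter, the boar as a block, and leaving out libraries were alternatives. Same-numbered libraries come from 1 boar, so the numbers pair the samples, which the main fit did not use. The correlation of their deviations was 0.00983 to 0.0902 over all genes and -0.121 to 0.254 over the tested chains. No libraries were identical, and within a tissue they differed by a chi-square of at least 9.53 per degree of freedom.

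Values per library are given for the 3 highest chains of each class by RPKM, every chain called higher in testis, and every chain whose call changed under an alternative, and for the 3 highest genes of each list and those called against its majority. Names and coordinates come from the files and from RefSeq Sscrofa11.1, the build of the files, and 822 of 15226 rows with only an Ensembl identifier were matched to a name. COL6A4, COL7A1, COL9A2 and COL20A1 have no named row and were not analysed here, so the ratio of COL9A1 to COL9A2 was not computed. The floor of 3 reads covers counting error only, whereas SD and standard errors include the spread between libraries.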

Additional observations from a re-analysis of the deposited data

Results flagged for a closer look

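In 9 of 98 groups of 5 libraries, over 38 chains and 11 ratios in 2 tissues, 1 library stood apart from the other 4 by Dixon's criterion, which chance meets in about 1 of 20 groups. Of these, 6 were testis replicate 4, the testis library with 7.75 CPM of signal recognition particle RNA against 7888 to 9134 in the others, and its part in these values was not tested. COL5A1 was 19.8 CPM there against 59.8 to 67.6 in the other testis libraries, and COL4A2 was 45 against 140 to 209. COL4A5 was 8.6 CPM against 23.4 to 26.4, COL6A2 96.8 against 182 to 218, and COL25A1 4.22 against 6.49 to 7.59. The ratio COL5A1/COL5A2 was 0.853 there against 1.98 to 2.29. The other 3 were COL8A2 at 29.5 CPM in epididymis replicate 5 against 4 to 5.35, COL13A1 at 4.19 CPM in epididymis replicate 3 against 0.556 to 0.767, and the ratio COL4A3/COL4A1 at 0.0444 in testis replicate 1 against 0.0258 to 0.0302.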

How the results depend on the processing

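Of the 26 chains called in the main fit, 24 to 26 were still called when 1 library was left out. DESeq2 gave 9 chains higher in testis, 16 higher in epididymis and 16 beyond 2-fold, and kept 24 of the 26 calls; for the other 2, COL8A1 and COL8A2, and for COL13A1 it gave no adjusted p. The main fit gave 8 chains higher in testis, 18 higher in epididymis and 21 beyond 2-fold. Testis replicate 4 as the only testis library was a setting whose spread was assumed equal to that of the epididymis, so only effect sizes are given. Under it COL11A1 was -0.29, COL4A3 -0.69, COL15A1 -0.61, SERPINH1 -0.23 and ADAMTS2 -0.12 on the log2 scale, and the cause was not tested. Leaving out 1 library gave 6 to 11 chains higher in testis, 18 to 19 in epididymis and 19 to 21 beyond 2-fold. DESeq2 size factors moved the median of all genes from -0.07 to 0.05. HSPG2 was 0.024 with these, 0.024 with DESeq2 itself, 0.12 without testis replicate 4 and 0.21 without that library and epididymis replicate 3, a setting chosen after seeing the data. COL15A1 ranged from -0.079 to 0.55 when 1 library was left out, below 0 without testis replicate 2 or epididymis replicates 4 or 5. COL4A4 ranged from -0.98 to 0.0068 when 1 library was left out, the last without epididymis replicate 3, and was 0.13 without it and testis replicate 4, and 0.64 with the replicate block. The replicate block gave 8, 19 and 20 chains and, among the chains, added only the call of COL4A2. For ratios the paired test within boars has a smallest p of 0.0625, so the 6 called ratios, with log2 differences of 1.69 (COL5A1/COL5A2), 1.96 (COL4A5/COL4A6), -1.37 (COL4A5/COL4A1), -1.72 (COL6A1/COL6A2), 0.72 (COL6A3/COL6A1) and 1.74 (COL15A1/COL18A1), lost their call by construction. Leaving out 1 library moved COL4A3/COL4A4 from -0.33 to 0.39, COL1A1/COL1A2 from -0.092 to 0.29, COL6A3/COL6A1 from 0.58 to 0.84, COL3A1/COL1A1 from -0.49 to -0.13, COL4A1/COL4A2 from -0.59 to -0.35 and COL4A3/COL4A1 from 1.27 to 2.46. Depth limits chains with few reads in 1 tissue over its 5 libraries, such as COL2A1 with 17 and COL25A1 with 22 reads in epididymis and COL23A1 with 55 in testis.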

Other observations

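Among genes of the cartilage marker list, 2 non-collagen matrix genes lay far apart in opposite directions, and both were chosen after their values were seen. COMP, which binds fibrillar and fibril-associated collagens, averaged 529 ± 60.5 CPM (SD, n = 5) in testis, against 3.54 ± 4.81 (SD, n = 5) in epididymis, a log2 fold change of 7.26 ± 0.82 (edgeR adjusted p = 8.16e-06). HAPLN1, which links hyaluronan to proteoglycans, had 0.416 ± 0.191 against 59.8 ± 53.5 CPM (log2 -7.20 ± 0.82, edgeR adjusted p = 8.60e-06).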
